A study of Mus musculus with 16 samples.

Results

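The genes described here are 35 genes of protein folding and quality control in the endoplasmic reticulum (ER), of 21640 genes counted in thyroid RNA. They were chosen by name, with earlier results of these data known, and matched to the count table by gene identifier, and all 35 were found and had enough counts to be tested. By role they are 11 chaperones and cochaperones, 11 protein disulfide isomerases and oxidases, 8 genes of ER-associated degradation (ERAD), 3 sensors and effectors of the unfolded protein response (UPR) and 2 translocon genes. Thyroids of 16 wild type male C57Bl/6J mice were sequenced, 1 library per mouse. The mice were accustomed to the study chow, the control diet (CD), and at 8 weeks of age either stayed on it or changed to a high-fat diet with sucrose water (HF+SD). There were 4 CD and 4 HF+SD mice after 3 weeks and another 4 of each after 6 weeks. The study's own differential expression and gene set analyses at 6 weeks list fewer CD mice than were deposited and do not name the missing ones. All deposited mice were used here. HF+SD was compared with CD within each time point, since the prefix of the library names changed with the time point.

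Secretory proteins enter the ER through the translocon, are folded there by chaperones, and receive their disulfide bonds from isomerases that the Ero1 oxidases recharge. Proteins that fail to fold are drawn back to the cytosol and degraded by ERAD, and when unfolded proteins accumulate, the UPR sensors raise transcription of chaperone and ERAD genes. The thyrocyte depends on this machinery because thyroglobulin (Tg), the precursor of thyroid hormone, is a very large glycoprotein with many disulfide bonds, and Hspa5 (BiP), Hsp90b1 (GRP94), calnexin and Pdia3 (ERp57) are known to bind it during folding.

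The libraries held 30025256 to 48508653 counts. Levels are given as CPM, the counts of a gene relative to library size, scaled by the trimmed mean of M-values (TMM) over the libraries of a time point. All 16 thyrocyte markers were detected in every library, and their summed level was 68583 to 103150 CPM in CD mice of 6 weeks against 101800 to 145580 in HF+SD mice, and 260380 to 311480 against 284350 to 316600 at 3 weeks. Reads of 38 skeletal muscle genes made up 0.123%, 4.15%, 17.5% and 12.6% of all counts in M22, M43, M45 and M48, the CD mice of 6 weeks, 0.15% to 0.499% in their HF+SD counterparts, and at most 0.0298% at 3 weeks. The 8 detected exocrine gland markers summed to 116 to 2346 CPM in CD mice of 6 weeks against 1511 to 4243 in HF+SD mice. On the HF+SD all 10 endothelial markers were higher at both time points, and 8 of 10 macrophage markers were higher at 6 weeks. White adipocyte markers were lower on the HF+SD at 6 and 3 weeks (9 and 8 of 11), as were brown adipocyte markers (5 of 6 and 6 of 7 tested), whose sum was 647 to 868 CPM in CD mice and 75.5 to 205 in HF+SD mice of 6 weeks. Of 6 C cell markers 3 were lower at 6 weeks, and at 3 weeks 4 were lower and 1 higher; their sum did not overlap, at 5658 to 10257 CPM in CD mice and 3917 to 4228 in HF+SD mice of 6 weeks, and 3300 to 5186 and 2713 to 3044 at 3 weeks. Parathyroid markers summed to 2634 to 16935 CPM in CD mice of 6 weeks, highest in M22, against 586 to 2691 in HF+SD mice. At 3 weeks they summed to 120 to 5150 against 64.8 to 2033. Plasma and B cell markers summed to 78.7 to 380 CPM in CD mice against 65.6 to 87.0 in HF+SD mice at 6 weeks. At 3 weeks they summed to 38.9 to 42.0 against 50.0 to 55.8. In whole tissue, fewer cells of a type and less RNA per cell cannot be told apart, and the part of these other cells in the values below was tested only as far as stated.

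Per kb of exon sequence (union of exons in GENCODE M21), the most abundant of the 35 transcripts on the CD at 3 weeks were the chaperones Calr, at 790 ± 194 CPM per kb (SD, n = 4), and Hspa5, at 775 ± 527. Hsp90b1 followed at 547 ± 213, and the isomerases Pdia3 at 449 ± 121 and P4hb at 279 ± 53.3 were next. The spreads of Calr, Hspa5 and Hsp90b1 overlapped, so their order is not resolved. The most abundant ERAD gene was Herpud1, with a mean of 141 CPM per kb, and Erp27 was the least abundant of the 35, at 0.0746. On the CD at 6 weeks Calr and Hspa5 had 439 ± 39.5 and 413 ± 161 CPM per kb, Pdia3 had 412 ± 35.6 and Hsp90b1 403 ± 115, so that the order of these 4 is not resolved, and Erp27 was the lowest, at 0.0730.

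Transcription of many of these genes is known to be raised through the ER stress response element (ERSE), which Atf6 binds together with NF-Y and which consists of CCAAT, 9 bases of any kind, and CCACG. Both strands were searched for it, and for the related ERSE-II (ATTGG, 1 base, CCACG), in RefSeq promoters of the GRCm38.p6 build, from 250 bases before to 50 bases after the start site. Promoters were found for 29 of the 35 genes. The ERSE was found in 10 of the 29 (34.5%), against 37 of 27025 genes with a promoter in the table (0.137%), and the ERSE-II in 2 of the 29 (6.90%) against 12 genes in all (0.0444%). By role, the ERSE was in 6 of 9 chaperone promoters (Hspa5, Hsp90b1, Calr, Canx, Dnajc3 and Creld2), 2 of 9 of isomerases and oxidases (Pdia6 and Ero1lb) and 2 of 7 of ERAD genes (Syvn1 and Derl3). The ERSE-II was found in Herpud1 and, just after the start site, in Dnajb11. Sequences are shown 5′ to 3′ on the strand of the gene for members that the values below turn on, with the first and last 5 bases of each element in capitals; a CGTGG followed by ATTGG is the element on the opposite strand.
Hspa5, chr2:34771940-34772089, plus strand: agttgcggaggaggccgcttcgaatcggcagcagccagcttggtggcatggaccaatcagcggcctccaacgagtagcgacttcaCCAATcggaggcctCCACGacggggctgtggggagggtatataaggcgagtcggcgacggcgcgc
Hsp90b1, chr10:86705513-86705676, minus strand: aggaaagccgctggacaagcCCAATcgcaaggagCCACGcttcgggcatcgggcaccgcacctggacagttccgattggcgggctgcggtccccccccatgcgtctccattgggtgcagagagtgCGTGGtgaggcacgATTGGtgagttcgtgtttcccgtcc
Calr, chr8:84847055-84847113, minus strand: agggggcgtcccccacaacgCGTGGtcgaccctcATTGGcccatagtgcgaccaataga
Pdia6, chr12:17266471-17266529, plus strand: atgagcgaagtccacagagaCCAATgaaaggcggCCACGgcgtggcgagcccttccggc
Ero1lb, chr13:12565662-12565720, plus strand: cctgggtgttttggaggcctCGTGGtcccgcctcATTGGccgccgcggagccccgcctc
Syvn1, chr19:6046512-6046570, plus strand: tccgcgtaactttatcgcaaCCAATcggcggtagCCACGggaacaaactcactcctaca
Herpud1, chr8:94386357-94386407, plus strand: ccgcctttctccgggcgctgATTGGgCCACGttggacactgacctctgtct
The element began 65 bases before the start site in Hspa5, 212 and 107 bases before it in Hsp90b1, 162 in Calr, 98 in Pdia6, 201 in Ero1lb, 44 in Syvn1 and 52 in Herpud1. A match of letters does not show that a factor binds there.

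After 6 weeks 6 of the 11 isomerases and oxidases were higher on the HF+SD, all 11 chaperones lay above the CD mean but Calr alone passed the test, and no ERAD gene passed it. Among the 35 genes, 7 were called higher at an adjusted p under 0.05 (edgeR's quasi-likelihood test, Benjamini-Hochberg adjustment over 18249 genes), against 12.0% of all genes tested, and 0 were called lower, against 9.55%. The 7 were Calr among the chaperones and Pdia5, Pdia6, Erp27, Erp29, Ero1l and Ero1lb among the isomerases and oxidases. At an unadjusted p under 0.05, 13 genes were higher and 0 lower, against 18.6% and 17.7% of all genes. DESeq2 called 12 of the 35 higher and 0 lower, against 12.0% and 12.3% of the genes it tested. With a log2 fold change beyond 1 also required, 3 were higher, Pdia5, Erp27 and Ero1l (6.64% of all genes), and 0 lower (6.01%). Every HF+SD mouse lay above every CD mouse for 9 of the 35 (13.8% of all genes), and below for 0 (9.97%). The median log2 fold change of the 35 was 0.40, beside -0.011 for all genes tested.

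By role, 6 of 11 isomerases and oxidases were called (median log2 fold change 0.85), 1 of 11 chaperones (0.63) and 0 of 8 ERAD genes (0.17), with 0 of 3 UPR genes (0.12) and 0 of 2 translocon genes (0.04). At an unadjusted p under 0.05, 0 of the 13 ERAD, UPR and translocon genes passed, and DESeq2 called 0 of them. Whether the roles differ from each other was not tested, because genes of a role are not independent replicates. The number called depended on single mice: without M45, M48, M5, M18 or M34 it was 3, without M35 it was 4, and in the first 5 cases the 3 were Calr, Pdia5 and Erp27. Of all genes tested, 8.82%, 7.91%, 10.1%, 7.4% and 7.36% were called higher in those 5 fits, in that order, and 8.42% without M35. Adding a covariate for the muscle score (the mean log2 CPM of the muscle genes in a library) left the same 3, against 6.73% of all genes. After scaling on 9 thyrocyte genes, a choice that shifts all genes by a median of -0.57, 2 were called higher (Pdia5 and Erp27) and 3 lower (Sec61b, Txndc5 and Derl1), against 4.73% and 44.0% of all genes, and the median of the 35 turned to -0.16.

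**Figure D1:**
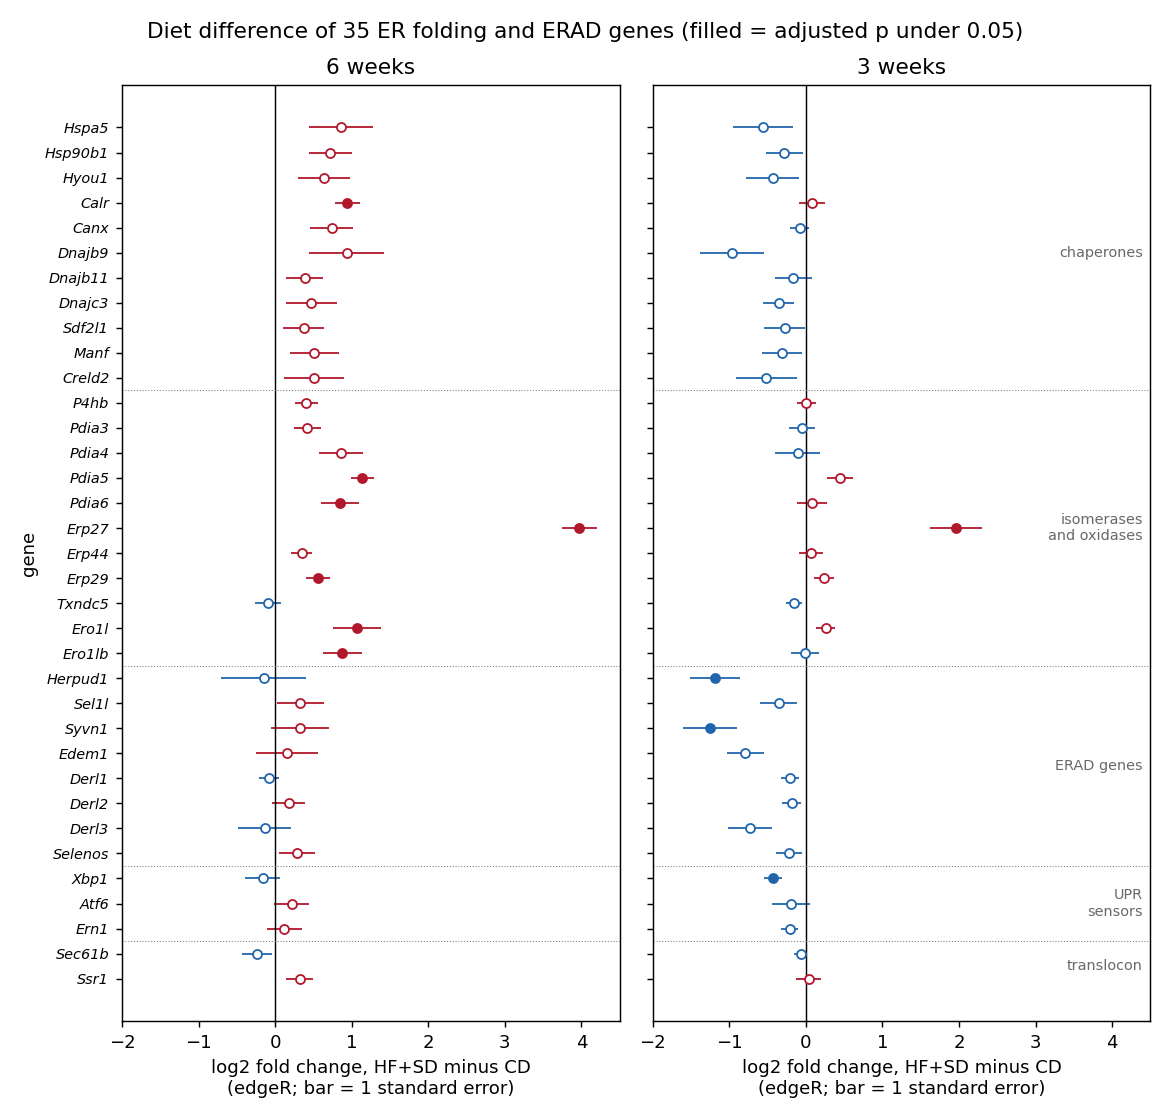
Log2 fold change of each of the 35 genes, HF+SD minus CD, with 1 standard error, at 6 weeks (left) and 3 weeks (right); filled points have an adjusted p under 0.05 and dotted lines separate the roles. At 6 weeks 7 points are filled, all to the right of 0; at 3 weeks Erp27 is filled to the right and Herpud1, Syvn1 and Xbp1 to the left.

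Erp27, a member of the disulfide isomerase family without a redox-active site that binds Pdia3, changed most. It had 0.258, 0.251, 0.162 and 0.199 CPM in CD mice of 6 weeks (in the order M22, M43, M45, M48, kept below), from 5 to 11 reads each, and 3.24, 4.04, 3.23 and 3.49 CPM in the HF+SD mice M5, M18, M34 and M35. Every HF+SD mouse lay far above every CD mouse, and the fold was 15.7 (log2 fold change 3.97 with a standard error, SE, of 0.23, adjusted p = 0.000103 by edgeR). The exact permutation test gave 0.0286, the smallest two-sided p that 4 mice against 4 allow. The transcript remained rare on both diets. The summed exocrine markers differed between the diets as well, as given above, with 2346 CPM in the CD mouse M43 and at most 138 in the other CD mice, and their part in the Erp27 level was not tested.

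Pdia5, a disulfide isomerase, had 26.6, 28.6, 18.03 and 24.6 CPM on the CD and 57.6, 55.1, 50.9 and 52.0 on the HF+SD at 6 weeks. The groups did not overlap and the HF+SD mice lay close together (log2 fold change 1.14, SE 0.15, adjusted p = 0.00142 by edgeR). The call held in all 19 alternatives, with adjusted p up to 0.0344 when scaled to thyrocyte genes.

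The Ero1 oxidases pass electrons from the isomerases to oxygen. Ero1l (Ero1 alpha) had 32.7, 50.9, 21.5 and 20.9 CPM on the CD and 86.8, 64.2, 69.6 and 43.1 on the HF+SD at 6 weeks. The HF+SD mouse M35 lay below the CD mouse M43, so the groups overlapped (log2 fold change 1.07, SE 0.31, adjusted p = 0.0402 by edgeR). Ero1lb (Ero1 beta) had 273, 348, 196 and 212 CPM on the CD and 675, 417, 424 and 373 on the HF+SD. These groups did not overlap, and M5 stood apart as the highest mouse (log2 fold change 0.88, SE 0.25, adjusted p = 0.0359 by edgeR). Leaving out 1 mouse ended the call of Ero1l in 5 of 8 cases and that of Ero1lb in 6 of 8.

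Erp29, another family member without a redox-active site, had 91.2, 95.8, 73.5 and 87.8 CPM on the CD and 161, 115, 116 and 122 on the HF+SD at 6 weeks. The groups did not overlap, and M5 was again the highest (log2 fold change 0.56, SE 0.15, adjusted p = 0.0299 by edgeR). Pdia6, a disulfide isomerase that works with Hspa5, ranged from 481 to 979 CPM in CD mice and from 1002 to 1492 in HF+SD mice (log2 fold change 0.85, SE 0.25, adjusted p = 0.0381 by edgeR). Leaving out 1 mouse ended the call of either gene in 6 of 8 cases.

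P4hb, the founding disulfide isomerase, had 754, 689, 596 and 642 CPM on the CD and 953, 870, 820 and 903 on the HF+SD. No mouse overlapped (exact permutation test, two-sided p = 0.0286), yet the log2 fold change of 0.40 did not pass over all genes (adjusted p = 0.0837 by edgeR). Pdia3 and Erp44, a retention factor of the early secretory pathway that anchors Ero1 proteins in the ER, were also without overlap between diets and not called, at log2 fold changes of 0.42 and 0.35. Pdia4 was at 0.86 on the same scale (adjusted p = 0.0596 by edgeR), with 1 overlapping mouse on either side. Of the 11, Txndc5 alone lay below the CD mean, with a log2 fold change of -0.09.

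Calr, a lectin chaperone and calcium store of the ER lumen, was the 1 chaperone called at 6 weeks. It had 1354, 1315, 1099 and 1294 CPM on the CD and 2664, 2434, 2403 and 2213 on the HF+SD. All HF+SD mice lay well above all CD mice, M5 among the rest (log2 fold change 0.94, SE 0.16, adjusted p = 0.00504 by edgeR). Calr was called in 18 of 19 alternatives and had an adjusted p of 0.251 by edgeR when scaled to thyrocyte genes. Its membrane-bound relative Canx (calnexin) had 502, 815, 397 and 378 CPM on the CD and 1098, 842, 927 and 623 on the HF+SD. The HF+SD mouse M35 lay below the CD mouse M43, and the log2 fold change of 0.74 did not pass (adjusted p = 0.0921 by edgeR).

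Hspa5, the Hsp70 chaperone of the ER lumen that also holds the UPR sensors inactive, had 1285, 2721, 1271 and 1712 CPM on the CD and 6089, 1889, 2439 and 2304 on the HF+SD at 6 weeks. M5 stood alone, the CD mouse M43 lay above the other 3 HF+SD mice, and the log2 fold change of 0.86 had a SE of 0.42 (adjusted p = 0.167 by edgeR). Hsp90b1, the Hsp90 of the ER, had 1488, 2314, 1302 and 1404 CPM on the CD and 3928, 2207, 2508 and 2087 on the HF+SD. M43 overlapped with the HF+SD mice here too (log2 fold change 0.72, adjusted p = 0.0920 by edgeR). The other 7 chaperones and cochaperones had log2 fold changes between 0.37 and 0.93 at 6 weeks. These were Hyou1 (an exchange factor of Hspa5), the J proteins Dnajb9, Dnajb11 and Dnajc3, Sdf2l1 (a partner of Dnajb11), and the stress-induced proteins Manf and Creld2, and none of the 7 passed the test.

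**Figure D2:**
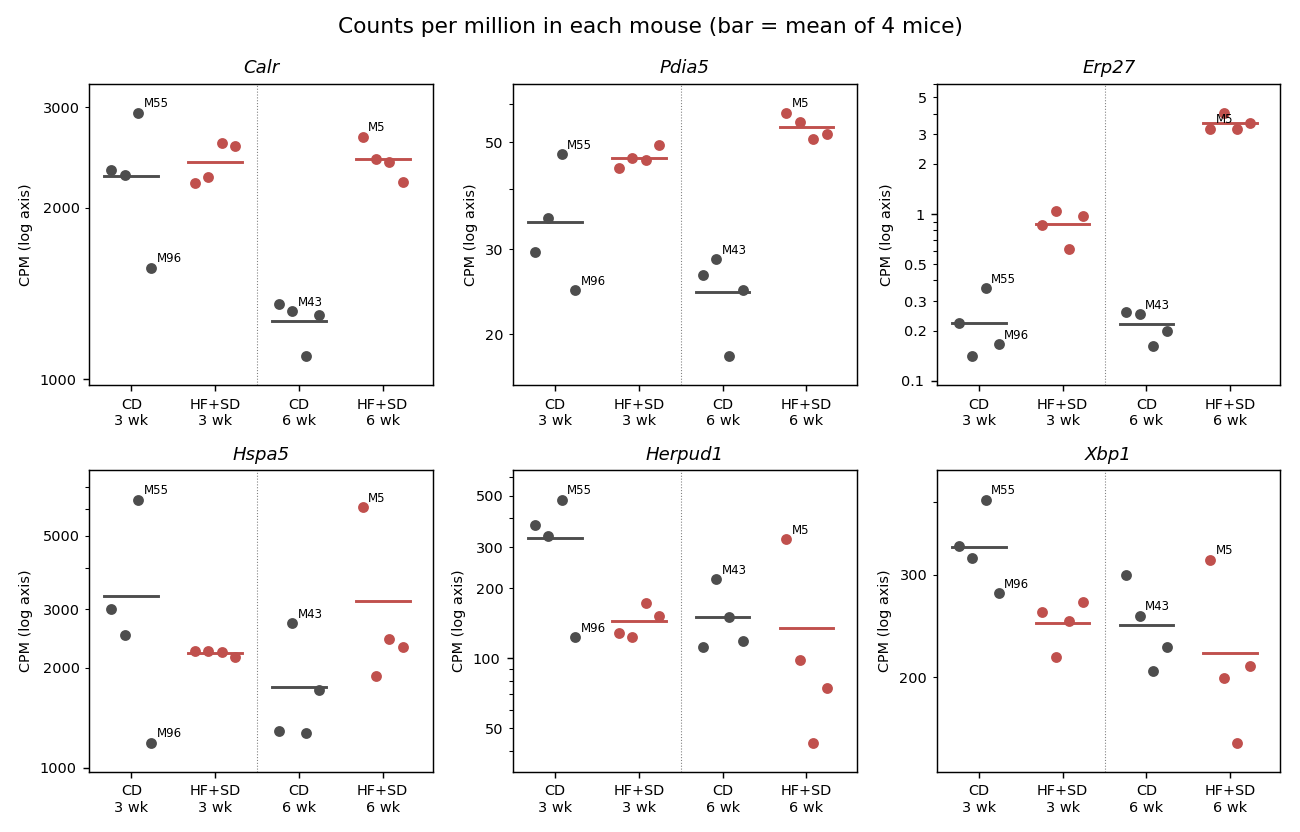
CPM of 6 genes in each mouse (points, log axis) with the mean of 4 mice (bar), CD in grey and HF+SD in red, with mice M5, M43, M55 and M96 named. Calr, Pdia5 and Erp27 at 6 weeks show no overlap between the diets; in Hspa5, M5 at 6089 CPM and M55 at 6419 CPM stand above all other mice of their time point.

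No ERAD gene was called at 6 weeks. Selenos, which recruits the p97 ATPase to the ERAD complex, had 61.0, 98.8, 53.3 and 55.9 CPM on the CD and 113, 71.5, 75.8 and 68.5 on the HF+SD. Sel1l, the adaptor of the ubiquitin ligase Syvn1 (HRD1), had 126, 180, 140 and 148 CPM on the CD and 333, 132, 138 and 142 on the HF+SD. In both genes M5 was the highest mouse and the other HF+SD mice lay within the CD range. Syvn1 had 45.8, 43.03, 29.5 and 36.6 CPM on the CD and 89.4, 49.2, 21.0 and 34.3 on the HF+SD. Derl2, a derlin of the retrotranslocation channel, had 70.6, 96.3, 59.6 and 67.6 CPM on the CD and 118, 67.9, 74.0 and 72.1 on the HF+SD. M5 was again the highest mouse in both and the other HF+SD mice lay near or below the highest CD mice, and the log2 fold changes of these 4 genes, 0.29, 0.33, 0.32 and 0.18, had adjusted p-values of 0.420 to 0.597 by edgeR. Herpud1 (an adaptor of Syvn1), Edem1 (which trims mannose from misfolded glycoproteins), Derl1 and Derl3 had log2 fold changes between -0.15 and 0.15.

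The UPR genes were likewise without a call at 6 weeks. Xbp1, the transcription factor that Ern1 (IRE1 alpha) activates by splicing, had 300, 255, 204 and 226 CPM on the CD and 318, 199, 154 and 209 on the HF+SD. Atf6 had 40.3, 62.5, 70.4 and 58.8 CPM on the CD and 89.7, 65.3, 69.5 and 44.97 on the HF+SD, and Ern1 had 64.4, 52.6, 33.1 and 34.9 on the CD and 62.1, 51.3, 45.6 and 42.2 on the HF+SD. The diets overlapped in all 3, with log2 fold changes of -0.16, 0.22 and 0.12. Counts per gene do not separate the spliced from the unspliced form of Xbp1. Of the translocon genes, Sec61b, a subunit of the channel, had 176, 194, 114 and 124 CPM on the CD and 150, 116, 125 and 125 on the HF+SD. Ssr1, a subunit of the associated TRAP complex, had 187, 270, 207 and 203 CPM on the CD and 345, 241, 259 and 237 on the HF+SD. Neither passed the test, at log2 fold changes of -0.24 and 0.32 (adjusted p = 0.412 and 0.232 by edgeR).

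After 3 weeks all 8 ERAD genes lay below the CD mean, as did 10 of 11 chaperones and all 3 UPR genes. Of the 35 genes 1 was called higher (Erp27), against 9.07% of the 17238 genes tested, and 3 lower (Herpud1, Syvn1 and Xbp1), against 5.78%. With a log2 fold change beyond 1, 1 was higher (3.25% of all genes) and 2 lower (1.40%), and the mice did not overlap for 1 higher gene (13.1%) and 2 lower genes (10.5%). The median log2 fold change was -0.54 for ERAD genes, -0.31 for chaperones, 0.07 for isomerases and oxidases, -0.21 for UPR genes and -0.02 for translocon genes, beside -0.0083 for all genes. Of the 35, 26 lay below 0. With the muscle score as covariate these directions turned for chaperones (median 0.30) and for the 35 together (0.21), 26 lay above 0, and ERAD genes had a median of -0.14. Leaving out any 1 of M53, M7, M19y, M20y or M31 left 0 lower calls. The share of all genes called lower fell as well in those fits, to between 2.63% and 4%. Leaving out M54 left 2 lower calls, against 6.74% of all genes, while leaving out M96 gave 6, against 4.02%. Leaving out M55 gave 5 higher and 3 lower calls. In that fit 7.88% of all genes were called lower, and the share called higher was above 9.07%.

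Herpud1 had 373, 336, 481 and 123 CPM in the CD mice M53, M54, M55 and M96 and 128, 123, 173 and 152 in the HF+SD mice M7, M19y, M20y and M31 at 3 weeks. M96 was at the level of the HF+SD mice while the other CD mice were above them (log2 fold change -1.19, SE 0.33, adjusted p = 0.0396 by edgeR). Syvn1 had 172, 141, 406 and 104 CPM on the CD and 82.0, 84.1, 92.0 and 87.4 on the HF+SD. All HF+SD mice lay below all CD mice (log2 fold change -1.25, SE 0.36, adjusted p = 0.0423 by edgeR). Edem1 had 120, 104, 192 and 75.2 CPM on the CD and 85.2, 66.6, 66.5 and 66.3 on the HF+SD, with overlap of 1 mouse on either side, and was not called (log2 fold change -0.79, adjusted p = 0.0560 by edgeR). Derl3 and Dnajb9 had log2 fold changes of -0.73 and -0.97 and were not called (adjusted p = 0.120 and 0.147 by edgeR).

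Xbp1 had 336, 320, 404 and 279 CPM on the CD and 259, 216, 249 and 269 on the HF+SD at 3 weeks. The groups did not overlap (log2 fold change -0.43, SE 0.12, adjusted p = 0.0372 by edgeR). These 3 lower calls were each lost in 5 or more of the 8 fits that leave out 1 mouse. They were lost too when the muscle score entered as a covariate. At 3 weeks that score was -0.50, -1.46, -1.55 and 0.83 in CD mice and 0.54, -0.12, 0.42 and 0.60 in HF+SD mice, lowest in M55 and highest in M96.

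Erp27 was higher at 3 weeks as well, with 0.223, 0.141, 0.360 and 0.166 CPM on the CD and 0.861, 1.05, 0.620 and 0.972 on the HF+SD. No mouse overlapped (log2 fold change 1.96, SE 0.34, adjusted p = 0.00482 by edgeR), and the call held in all 8 fits that leave out 1 mouse. The exocrine markers summed to 68.9 to 256 CPM in CD mice and 73.3 to 130 in HF+SD mice at that time, and their part in this result was not tested. Pdia5 had 29.7, 34.9, 47.3 and 24.7 CPM on the CD and 44.2, 46.3, 46.0 and 49.4 on the HF+SD. Of the CD mice only M55 reached the HF+SD range, and the log2 fold change of 0.45 did not pass (adjusted p = 0.107 by edgeR).

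The main chaperones and isomerases gave no call at 3 weeks. Hspa5 had 2994, 2504, 6419 and 1189 CPM on the CD and 2241, 2243, 2233 and 2158 on the HF+SD. The 4 HF+SD mice were nearly equal, and the CD mice lay on both sides of them (log2 fold change -0.56, adjusted p = 0.365 by edgeR). Hsp90b1 had 2379, 1925, 3287 and 1236 CPM on the CD and 1580, 1852, 1980 and 1858 on the HF+SD. P4hb had 769, 751, 1014 and 657 CPM on the CD and 777, 790, 826 and 810 on the HF+SD, and Ero1l had 38.8, 38.8, 55.7 and 39.8 on the CD and 57.0, 52.4, 48.2 and 49.7 on the HF+SD. The diets overlapped in each, at log2 fold changes of -0.28, 0.01 and 0.26.

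The diet difference at 6 weeks minus that at 3 weeks was above 0 for 34 of the 35 genes, with a median of 0.64 on the log2 scale beside -0.05 for all genes. None of the 35 passed the test of this difference (edgeR's interaction term, adjustment over 18929 genes), against 0.0792% of all genes, and 12 had an unadjusted p under 0.05, all of them above 0, where 9.35% of all genes were. DESeq2 called 3 of the 35, against 8.33% of the genes it tested. The lowest adjusted p-values by edgeR were those of Erp27, at 0.0512 (difference 1.96, SE 0.39), and Calr, at 0.0694 (difference 0.80, SE 0.23). The adjusted p-values of the other 33 were 0.121 or more. The mice M55 (CD, 3 weeks) and M5 (HF+SD, 6 weeks), described next, move this difference upward, and M96 (CD, 3 weeks) and M43 (CD, 6 weeks) move it downward. Without M5 or M55, 5 of the 35 had an unadjusted p under 0.05, and without M96 21 did. Without M43 16 did, 3 of them called, against 6.7% of all genes. Without M45 or M48 (CD, 6 weeks) 8 did, and 4 did without both or with the muscle covariate.

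The 35 genes varied together between mice of 1 group, so the number of them that moved in a mouse or a group is not a number of independent observations. M5 was the highest of the 4 HF+SD mice at 6 weeks for 33 of the 35 genes, beside 31.5% of all genes, with a median of 0.73 log2 units above the mean of the other 3. Herpud1 was 4.76-fold, Dnajb9 3.71-fold and Hspa5 2.77-fold above the other 3 mice, while Erp27 was 0.909-fold. M55 was the highest of the CD mice at 3 weeks for 34 of 35 genes, beside 35.4% of all genes, with a median of 0.72 and a 3.10-fold higher Hspa5. M96 was the lowest of the same group for 31 of 35, beside 23.9% of all genes, with a median of -0.67 and Hspa5 at 0.327-fold. Among the CD mice at 6 weeks, M43 was the highest for 24 and M45 the lowest for 25 of 35, beside 23% and 30.5% of all genes. The 141 other genes of the pathway, described below, shared this in part. Of these, M5 was the highest for 54.6%, M55 the highest for 76.6% and M96 the lowest for 61%. M43 was the highest for 41.8% and M45 the lowest for 34% of them.

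**Figure D3:**
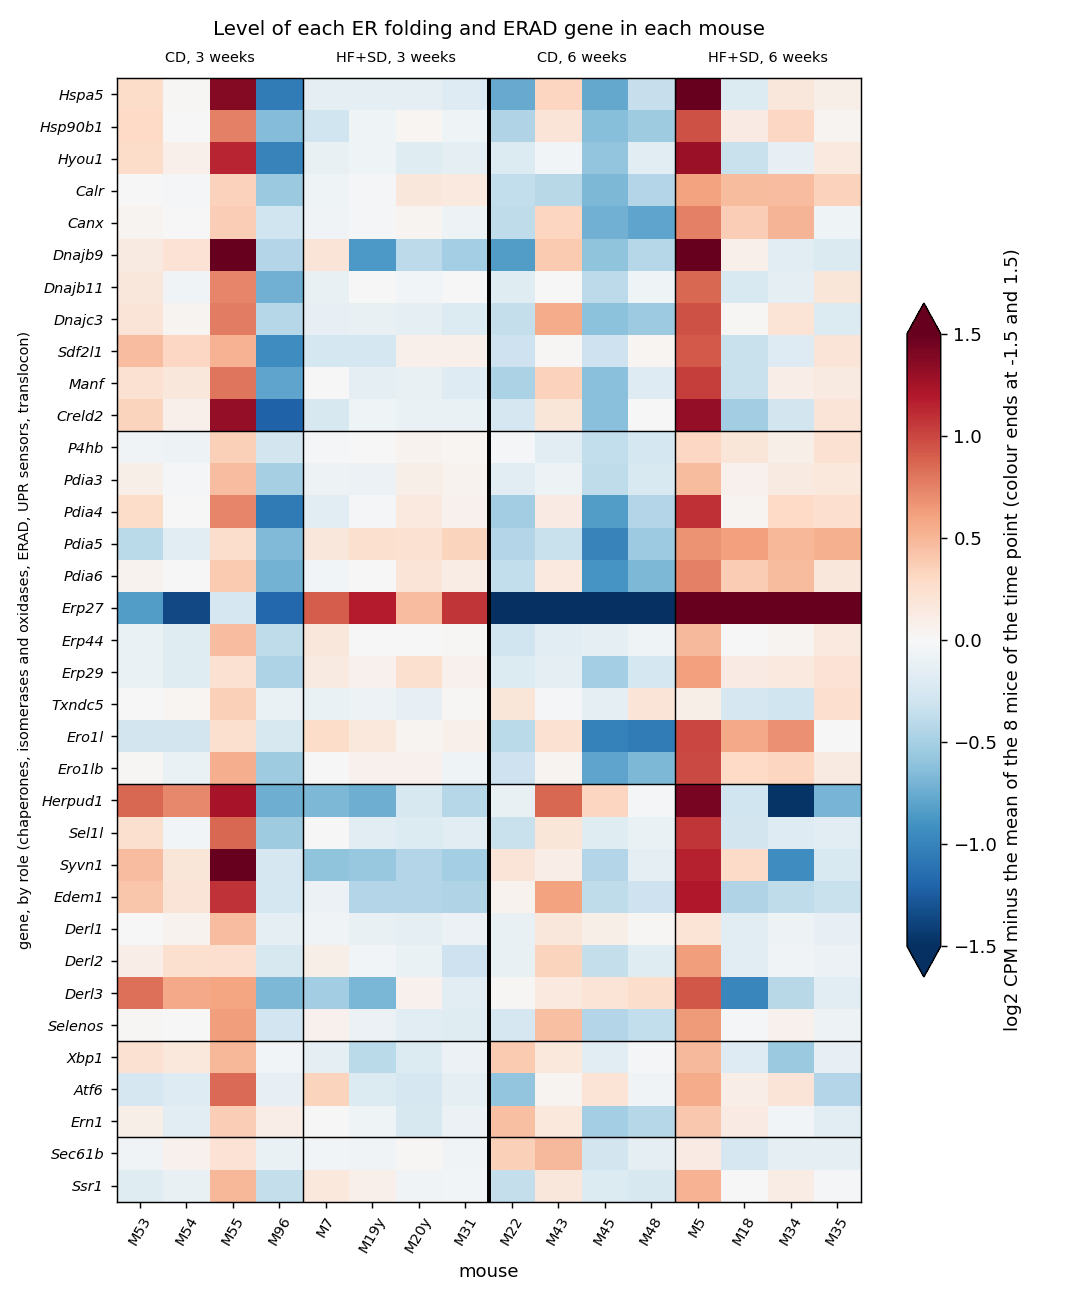
Log2 CPM of each of the 35 genes (rows, by role) in each mouse (columns), minus the mean of the 8 mice of the time point, with the colour scale ending at 1.5 in either direction. M5 and M55 are red and M96 blue in nearly every row, the 4 HF+SD mice of 3 weeks are pale in most rows, and Calr, Pdia5 and Erp27 are blue in all CD mice and red in all HF+SD mice of 6 weeks.

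By role, in M5 the median deviation was 0.41 for isomerases and oxidases, 1.04 for chaperones and higher still for ERAD genes, 87.5% of which lay more than 0.5 above the other mice. In M55 it was 0.61, 0.93 and 0.83 in the same order, and in M96 it was -0.44, -1.12 and -0.86. The 10 genes with an ERSE had median deviations of 0.87 in M5, 0.79 in M55 and -0.93 in M96, and the 19 genes with a promoter in the table and no ERSE had 0.65, 0.68 and -0.50. The 12 tested genes with an ERSE that are not among the 35 had 0.02, 0.14 and -0.11. The diet difference at 6 weeks had a median of 0.73 over the 10 genes with an ERSE and 0.33 over the 19 without, and at 3 weeks it was -0.32 and -0.16. Of these 10 genes 6 are chaperones, so the element and the role cannot be told apart here. The 19 include the ERSE-II genes Herpud1 and Dnajb11. In M5 the muscle markers took 0.499% of counts, the most among the HF+SD mice, and M55 had the most exocrine marker CPM of its time point, at 256. The part of these in the deviations was not tested.

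The spread of the 35 genes differed between the groups. The median SD of log2 CPM within a group was 0.091 in the HF+SD mice at 3 weeks, where it was 0.14 over all genes, but 0.46 in the CD mice at 3 weeks, beside 0.24 over all genes. At 6 weeks it was 0.41 on the HF+SD, beside 0.23 over all genes, and 0.29 on the CD, beside 0.33. These are descriptions, and the difference in spread was not tested.

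**Figure D4:**
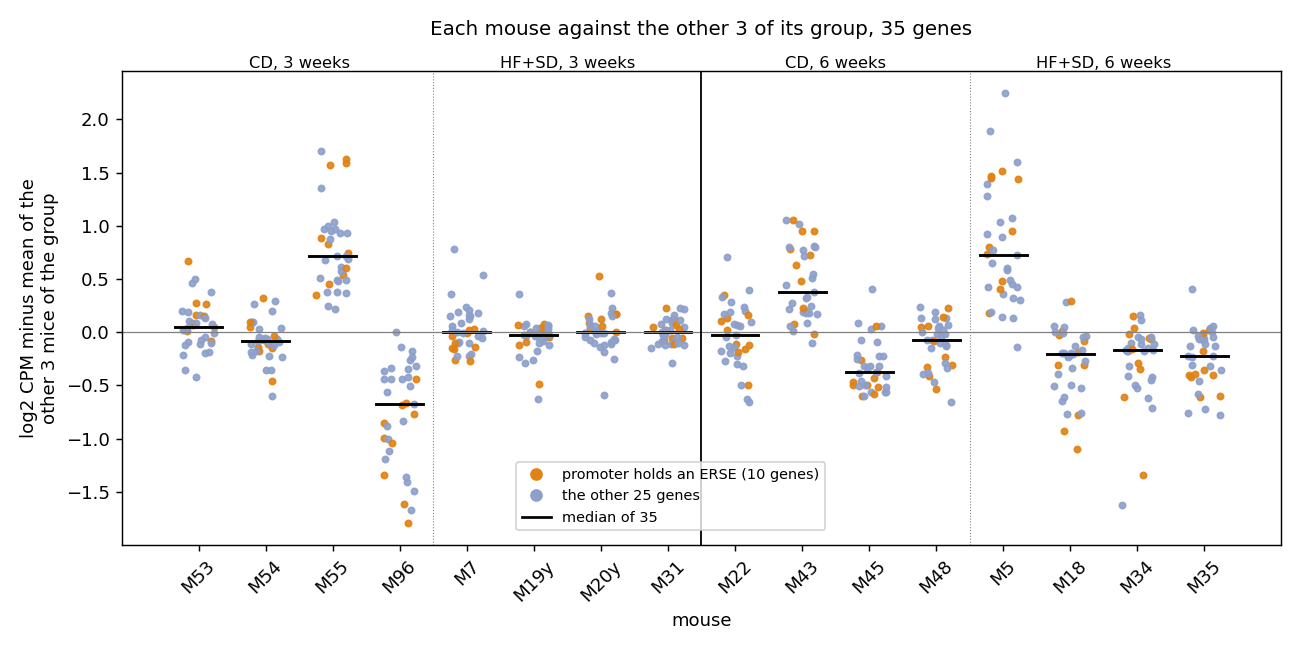
Log2 CPM of each of the 35 genes in each mouse minus the mean of the other 3 mice of its group, with a bar at the median of 35; orange points are the 10 genes whose promoter holds an ERSE and blue points the other 25. Medians lie at 0.73 in M5, 0.72 in M55 and -0.67 in M96, and at 0.38 and -0.38 in M43 and M45.

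Of 141 other genes of ER folding, redox, ERAD, translocation and the UPR that were tested, 16 were higher and 2 lower at 6 weeks, and 9 higher and 0 lower at 3 weeks by edgeR. At an unadjusted p under 0.05, 31 were higher and 6 lower at 6 weeks, where 18.58% and 17.65% of all genes were. At 3 weeks 22 were higher and 15 lower, where 16.4% and 14.5% of all genes were. The higher calls are 11.3% and 6.38% of the 141, near or below the 12.0% and 9.07% of all genes, so the higher counts are not a result about the list. The lower calls are 1.42% and 0% of the 141, against 9.55% and 5.78% of all genes. Whether the list differs from all genes was not tested. The median log2 fold changes of the 141 were 0.16 and -0.03. Among 31 folding genes 6 were higher at 6 weeks, including the glucosidase II subunit Prkcsh (31.3 ± 3.97 CPM on the CD, 55.9 ± 1.93 on the HF+SD, SD, n = 4), the cyclophilin Ppic (64.1 ± 8.17 and 112 ± 6.71) and the KDEL receptor Kdelr3 (16.01 ± 4.58 and 41.5 ± 13.0). Among 18 redox genes 4 were higher, namely the ER peroxidase Gpx7 (7.63 ± 1.23 and 16.9 ± 1.62 CPM), the sulfhydryl oxidase Qsox1, the isomerase Pdia2 and the thioredoxin-related Tmx1. Gpx7, Tmx1 and Ppic were higher at 3 weeks too, with log2 fold changes of 0.93, 0.46 and 0.45.

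Among 41 other ERAD genes 3 were higher at 6 weeks, the lectins Os9 (111 ± 21.1 CPM on the CD, 239 ± 19.9 on the HF+SD) and Erlec1 and the p97 tether Ubxn8, and 1 was lower, Svip, a p97-binding inhibitor of ERAD (log2 fold change -0.82). Os9 was also higher at 3 weeks (log2 fold change 0.31, adjusted p = 0.0308 by edgeR), as was Edem2. Of 42 translocon and insertion genes, Emc10 and Dad1 were higher and Sec61a2 lower at 6 weeks, and Emc8 and Srp14 higher at 3 weeks. Of 9 UPR genes, Atf6b was higher at 6 weeks (log2 fold change 0.63, adjusted p = 0.0359 by edgeR), and at 3 weeks edgeR called 0, with 2 at an unadjusted p under 0.05.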

How the data were processed

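Thyroid poly(A) RNA of 16 mice was sequenced by the authors as 150 bp read pairs. They deposited raw counts per gene and, as a second table, a normalized signal, the count divided by 1 size factor per library. The submitters' processing notes name mm39, Trim Galore 0.6.7, STAR, R 4.1.0 and DESeq2 1.36.0. The choice of counter, strand setting and gene filter was not given in the sources used here. HF+SD and CD were compared within each time point on the deposited counts by edgeR 4.0.16 (R 4.3.3; TMM, filterByExpr, glmQLFit, glmQLFTest; Benjamini-Hochberg over all genes tested; tested on simulated data), with mice as replicates. The simulation gave all genes the same dispersion and did not model the varying muscle content of the CD mice of 6 weeks. The standard error is the absolute log2 fold change divided by the square root of F. Log2 CPM used a prior count of 2. Single genes were also compared by exact permutation over the 70 splits. Identifiers were matched to GENCODE M21 names for 20841 of 21640 genes. The members and the lists of other genes were chosen with earlier results of these data known. Values per mouse are given for Hspa5, P4hb, Ero1l and Hsp90b1, the 4 lowest p-values per role at 6 weeks and the 6 lowest at 3 weeks. Of the other pathway genes, up to 4 called per list and direction could be named. Alternatives were DESeq2 1.42.0, RLE and upper-quartile factors, limma 3.58.1 on log2 of the deposited signal plus 1, other filters, 1 fit of 16 libraries, a covariate for the muscle score, removal of muscle genes, scaling on 9 thyrocyte genes, and leaving out mice. The promoter search was added after the values were seen.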

Additional observations from a re-analysis of the deposited data

Results flagged for a closer look

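In 16 of the 140 sets of 4 mice (35 genes in 4 groups), 1 mouse lay so far from the nearest of the others, relative to the range of the group, that it passed Dixon's 95% critical value. About 7 such sets arise by chance, and since the genes vary together the sets are not independent. The HF+SD mouse M5 at 6 weeks accounted for 8 of them as the highest of its group, with 6089 CPM of Hspa5, 418 of Dnajb9, 161 of Erp29, 675 of Ero1lb, 333 of Sel1l, 126 of Edem1, 118 of Derl2 and 113 of Selenos. In the CD mice at 6 weeks, M43 was highest with 581 CPM of Dnajc3 and 98.8 of Selenos. In the CD mice at 3 weeks, M55 was highest with 55.7 CPM of Ero1l and 130 of Atf6. In the HF+SD mice at 3 weeks, M7 was highest with 98.4 CPM of Erp44, 85.2 of Edem1 and 91.7 of Atf6, and M31 was lowest with 2158 CPM of Hspa5, only slightly below the other 3 mice. No cause of these values was tested.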

How the results depend on the processing

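Calr and Pdia5 at 6 weeks and Erp27 at both time points kept their calls in every fit that left out 1 mouse. With 5 to 14 reads per CD mouse, Erp27 was not tested when 10 counts were required in every library, which left 0 higher calls at 3 weeks. No call changed direction: 81 values changed sign, none of them called in either fit. The cause of each change was not tested. No paired analysis was possible because each mouse has its own number and belongs to 1 group. In place of 7 higher calls at 6 weeks, DESeq2 made 12, the muscle covariate 3, thyrocyte scaling 2 (and 3 lower), a log2 fold change beyond 1 gave 3 and leaving out M45 and M48 gave 3. Leaving out 1 mouse gave 3 to 10, against 7.36% to 15.9% of all genes, and without M45 and M48 that share was 6.61%. In place of 1 higher and 3 lower calls at 3 weeks, leaving out 1 mouse gave 1 to 5 and 0 to 6, the muscle covariate 2 and 0, 1 fit of 16 libraries 0 lower and limma on the deposited signal 1 lower. Without 1 mouse, 2.63% to 7.88% of all genes were called lower and 5.64% or more higher, both shares being largest without M55. With the muscle covariate 6.42% were called higher and 3.54% lower. The fit of 16 libraries called 2.38% lower and limma 6.64%. Leaving out M55 and M96, chosen after the values were seen and the highest and the lowest CD mouse for 34 and 31 of the 35 genes, gave 3 higher and 11 lower. In that fit 7.87% of all genes were called higher and 4.65% lower. For the interaction DESeq2 called 3, against 8.33% of the genes it tested. Limma, RLE factors, upper-quartile factors and thyrocyte scaling called 1 each, against 0.534%, 0.486%, 0.888% and 5.16% of all genes. Leaving out 1 mouse gave 0 to 3, against 0.00515% to 14.1%.

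Medians of log2 fold changes moved as follows. Thyrocyte scaling shifted all genes tested by a median of -0.57 (6 weeks) or -0.17 (3 weeks). It gave -0.16 for the 35 genes, 0.11 for chaperones, 0.30 for isomerases and oxidases and -0.36 for ERAD genes at 6 weeks. The muscle covariate gave 0.21, 0.30, 0.38 and -0.14 in the same order at 3 weeks, where muscle genes took at most 0.0298% of counts. Without M45 and M48 the isomerase and oxidase median at 6 weeks was 0.56. Leaving out 1 mouse gave 0.18 to 0.79 for chaperones and 0.58 to 1.03 for isomerases and oxidases at 6 weeks.

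Log2 fold changes of uncalled genes that changed sign were, with thyrocyte scaling at 6 weeks, -0.17 for Dnajb11, -0.069 for Dnajc3, -0.19 for Sdf2l1, -0.047 for Manf, -0.026 for Creld2, -0.16 for P4hb, -0.14 for Pdia3, -0.24 for Erp44, -0.22 for Sel1l, -0.18 for Syvn1, -0.35 for Edem1, -0.38 for Derl2, -0.27 for Selenos, -0.39 for Atf6, -0.39 for Ern1 and -0.26 for Ssr1. At 3 weeks the same scaling gave -0.12 for Calr, -0.19 for P4hb, -0.12 for Pdia6, -0.13 for Erp44 and -0.16 for Ssr1. With the muscle covariate they were 0.24 for Herpud1, 0.043 for Derl1, 0.12 for Derl3 and -0.22 for Ern1 at 6 weeks. At 3 weeks that covariate gave 0.40 for Hspa5, 0.21 for Hsp90b1, 0.40 for Hyou1, 0.14 for Canx, 0.36 for Dnajb11, 0.054 for Dnajc3, 0.29 for Sdf2l1, 0.30 for Manf, 0.51 for Creld2, 0.27 for Pdia3, 0.58 for Pdia4, 0.35 for Ero1lb, 0.11 for Sel1l, 0.032 for Derl2, 0.073 for Selenos, 0.054 for Atf6 and 0.037 for Sec61b. Without M45 and M48, Edem1 was at -0.14 and Ern1 at -0.21 at 6 weeks, and without M55 and M96, Ero1lb was at 0.057 and Atf6 at 0.17 at 3 weeks. P4hb at 3 weeks was at -0.0055 with DESeq2, -0.0031 with limma and -0.0040 with RLE factors. Ero1lb at 3 weeks was at 0.0087 with limma and 0.011 with upper-quartile factors, and Edem1 at 6 weeks was at -0.016 with limma.

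Leaving out 1 mouse in turn changed the sign of other uncalled genes at 6 weeks, within -0.024 to 0.72 for Creld2, -1.05 to 0.16 for Herpud1, -0.11 to 0.47 for Sel1l, -0.15 to 0.58 for Syvn1, -0.43 to 0.37 for Edem1, -0.039 to 0.30 for Derl2, -0.63 to 0.094 for Derl3 and -0.021 to 0.33 for Ern1. At 3 weeks the ranges were -0.062 to 0.23 for Calr, -0.18 to 0.047 for Canx, -0.36 to 0.12 for Dnajb11, -0.81 to 0.0026 for Creld2, -0.078 to 0.14 for P4hb, -0.19 to 0.12 for Pdia3, -0.36 to 0.17 for Pdia4, -0.093 to 0.24 for Pdia6, -0.036 to 0.27 for Erp44, -0.16 to 0.20 for Ero1lb, -0.35 to 0.14 for Atf6 and -0.067 to 0.25 for Ssr1.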
